A study of Zea mays with 10 samples.

Results

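The gene lkrsdh1 of maize, listed in the count table as 'GeneID:541648', codes for lysine-ketoglutarate reductase and saccharopine dehydrogenase, and it is 1 of 48174 genes listed in the count table of this series. Its row was selected on its measured EU nascent over nuclear difference, which an earlier analysis had drawn from the same libraries. That difference is therefore given as a description, without a test. Nuclei were taken from the last 1 mm of primary and seminal root tips of seedlings of the inbred line B73, 3 days old. All seedlings were kept in water for 1 h and then in 175 uM 5-ethynyl uridine (EU) for 1 h. EU is a uridine analog that is built into RNA made during the labelling and allows that RNA to be biotinylated. The EU nascent group (5 libraries) held the RNA pulled down with streptavidin, and the nuclear group (5 libraries) held total nuclear RNA of equally labelled tissue without the pulldown. The series asks how labelling and total nuclear RNA compare as measures of transcriptional activity. A pulldown from unlabelled tissue, which would show RNA captured without EU, was not analysed here.

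Plants remove surplus lysine by the saccharopine pathway. The reductase domain of the lkrsdh1 enzyme joins lysine to alpha-ketoglutarate to form saccharopine, and the dehydrogenase domain splits saccharopine into glutamate and an aminoadipic semialdehyde, which an aldehyde dehydrogenase then oxidises. In maize the gene is best known from the endosperm of the kernel, where the bZIP transcription factor Opaque-2 activates it and where kernels of opaque2 mutants are rich in lysine. Reads are counted per gene, and the reference table lists 5 RefSeq transcripts of lkrsdh1 that such counts do not tell apart.

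The libraries held between 1323450 and 20397606 assigned counts, and 21048 genes had enough counts to be tested. Levels below are counts scaled to the library total (CPM) with factors from the trimmed mean of M-values (TMM), and every fold change sets EU nascent over nuclear. The quasi-likelihood F test of edgeR, adjusted by Benjamini-Hochberg at 0.05, called 40.9% of tested genes: 4166 (19.8%) as higher and 4436 (21.1%) as lower in the captured RNA. With library totals in place of TMM the counts were 7386 higher and 2765 lower, and the median over all genes went from 0.02 to 0.19 (log2). Every change is therefore relative to the bulk of genes. Of 7 root tip and cell division markers, 6 had a mean of at least 1 CPM. These were the replication clamp genes pcna1 and pcna2, the cyclin genes cyc1 and cyc3, the root hair gene rth3 and wox5B. The last, wox5B, was too low to test, with means of 1.34 CPM in EU nascent and 0.82 in nuclear. The crown root regulator gene rtcs1 had no count. All 9 kernel storage protein (zein) genes matched were at or near 0, with 1 count in all in the 10 libraries. Of 5 leaf photosynthesis genes, ssu1, CAB1 and pep1 had between 0 and 6 counts in all, while me3 and Ppdk1, both of C4 photosynthesis, reached 44.9 and 644 CPM. Not every marker symbol planned in advance gave a gene here, so these marker sets are partial.

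lkrsdh1 was at about double the level in the captured RNA. The EU nascent libraries held 276 CPM in replicate 1, 268 in replicate 2, 208 in replicate 3, 312 in replicate 4 and 245 in replicate 5. The nuclear libraries held 115, 130, 103, 164 and 112 CPM in the same order. The groups did not overlap, as for 24.8% of tested genes (11.2% with EU nascent above), and the lowest EU nascent library, replicate 3, stood 1.27-fold above the highest nuclear library, replicate 4. The 5 captured libraries averaged 262 ± 38.5 CPM and the 5 nuclear ones 125 ± 24.0 (SD). The fitted log2 fold change was 1.05 ± 0.12 (SE), a ratio of 2.07. Among tested genes, 315 (1.5%) had a log2 fold change at least as high, beside a median of 0.02 over all of them. In bulk RNA, fewer cells of a type and less RNA per cell cannot be told apart, so these values do not say which root tip cells held the transcript.

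**Figure D1:**
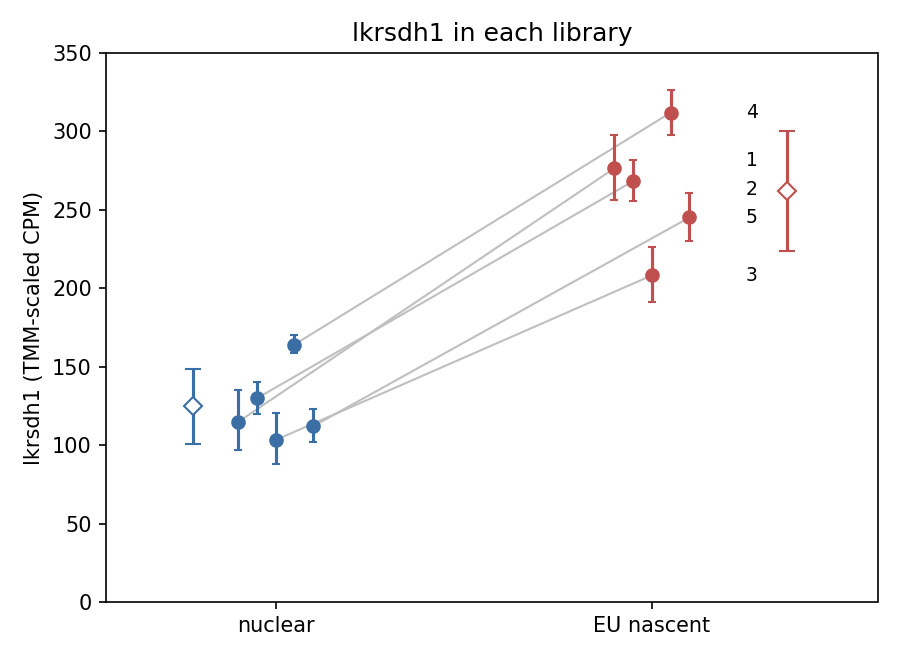
Level of lkrsdh1 in each library, in TMM-scaled CPM on a linear axis from 0. Filled points are libraries with exact Poisson 95% intervals (counting error only), grey lines join libraries with the same replicate number, numbers at the right are replicate numbers, and open diamonds are group means with SD (n = 5). All 5 EU nascent libraries, from 208 to 312 CPM, sit above the nuclear ones, from 103 to 164.

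The counts behind these levels were whole numbers in all 10 libraries, without the fractions that mark reads divided between genes, and 0 other genes overlap lkrsdh1 in the reference table. In EU nascent, the raw counts of replicates 1 to 5 were 681, 1630, 538, 1884 and 1039. In nuclear they were 141, 634, 166, 3140 and 449, so nuclear replicates 1 and 3 were the least precise. The exact Poisson 95% interval was 96.6 to 135 CPM for nuclear replicate 1 and 158 to 170 CPM for nuclear replicate 4, the deepest library. These intervals cover counting error only. The spread between libraries was wider than counting error, with a coefficient of variation of 14.7% in EU nascent and 19.2% in nuclear, where counting alone gives 3.30% and 5.87%. edgeR's estimate of the biological coefficient of variation for the gene was 14.3%, beside 12.1% for the trend of genes of like abundance.

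Libraries with the same replicate number resembled each other in lkrsdh1. Replicate 4 was the highest and replicate 3 the lowest in both groups. The EU nascent over nuclear ratio within a number was 2.41 for replicate 1, 2.07 for replicate 2, 2.02 for replicate 3, 1.90 for replicate 4 and 2.19 for replicate 5. On the log2 scale the mean of these 5 ratios was 1.08 with an SD of 0.13, whereas the level itself had an SD over libraries of 0.22 in EU nascent and 0.26 in nuclear. In a fit with the replicate number as a block, the log2 fold change was 1.06 and its SE fell to 0.06 from 0.12.

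**Figure D2:**
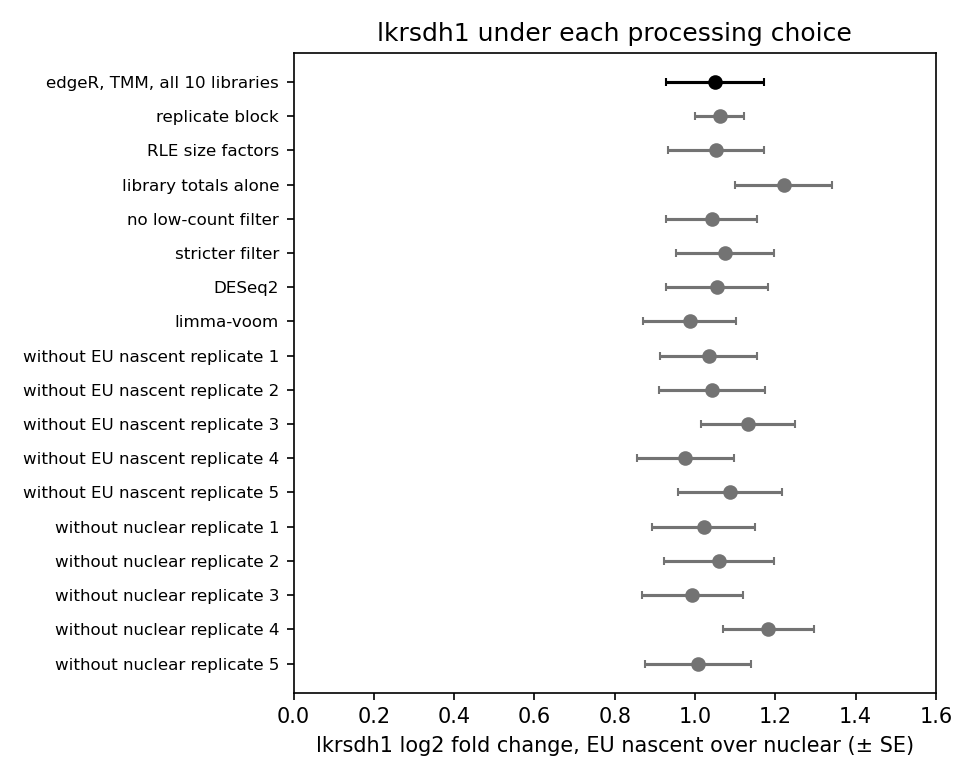
Log2 fold change of lkrsdh1, EU nascent over nuclear, with its SE, under each processing choice. The black point is the edgeR fit with TMM scaling on all 10 libraries (1.05), and grey points are alternatives, which run from 0.98 without EU nascent replicate 4 to 1.22 with library totals alone.

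The step after lkrsdh1 was not called. ALDH7 (GeneID 100282748) belongs to the aldehyde dehydrogenase family that oxidises aminoadipic semialdehyde, and it was the one other gene matched in the list of lysine and branched-chain amino acid breakdown. It held 82.0, 97.6, 71.2, 89.9 and 94.8 CPM in EU nascent replicates 1 to 5, and 77.3, 82.1, 83.3, 81.7 and 68.1 CPM in nuclear. The groups overlapped, with EU nascent replicates 2, 4 and 5 above every nuclear library and replicates 1 and 3 among them. Its log2 fold change was 0.16 ± 0.09 (SE; edgeR adjusted p = 0.169). The call depended on settings: the edgeR adjusted p was 0.00627 with library totals alone (log2 fold change 0.33) and 0.039 without EU nascent replicate 3 (0.23). ALDH7 also had fractional counts, so reads may be shared with another gene.

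The 5 genes of the aspartate family, from which lysine is made, had a median log2 fold change of 0.12. Of these, 1 was higher, 1 lower and 3 not called, beside 19.8% higher and 21.1% lower over all tested genes. The higher one was dps1 (GeneID 542379), dihydrodipicolinate synthase, the first enzyme of the branch that leads only to lysine. Its levels in replicates 1 to 5 were 23.5, 21.4, 24.4, 22.4 and 22.9 CPM in EU nascent and 14.6, 14.3, 16.2, 12.8 and 15.5 in nuclear. The groups did not overlap, as for 24.8% of tested genes (11.2% with EU nascent above). The log2 fold change was 0.68 ± 0.12 (SE; edgeR adjusted p = 0.000175). AKHSDH1 (GeneID 542249), a bifunctional aspartate kinase and homoserine dehydrogenase higher up the pathway, was lower, with 81.1 ± 4.57 CPM in EU nascent against 99.5 ± 10.2 in nuclear (SD, n = 5). Its log2 fold change was -0.30 ± 0.08 (edgeR adjusted p = 0.00752), the call was lost with library totals alone (-0.12, edgeR adjusted p = 0.23), and another gene overlaps it in the reference table. The aspartate kinase gene ASK2 (0.13 ± 0.09), the AKHSDH1 relative akh2 (-0.16 ± 0.22) and cgs1 (0.12 ± 0.08), cystathionine gamma-synthase of the methionine branch, were not called. In the reference table another gene overlaps akh2. With library totals alone, ASK2 and cgs1 passed as higher (edgeR adjusted p = 0.00868 and 0.00663).

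**Figure D3:**
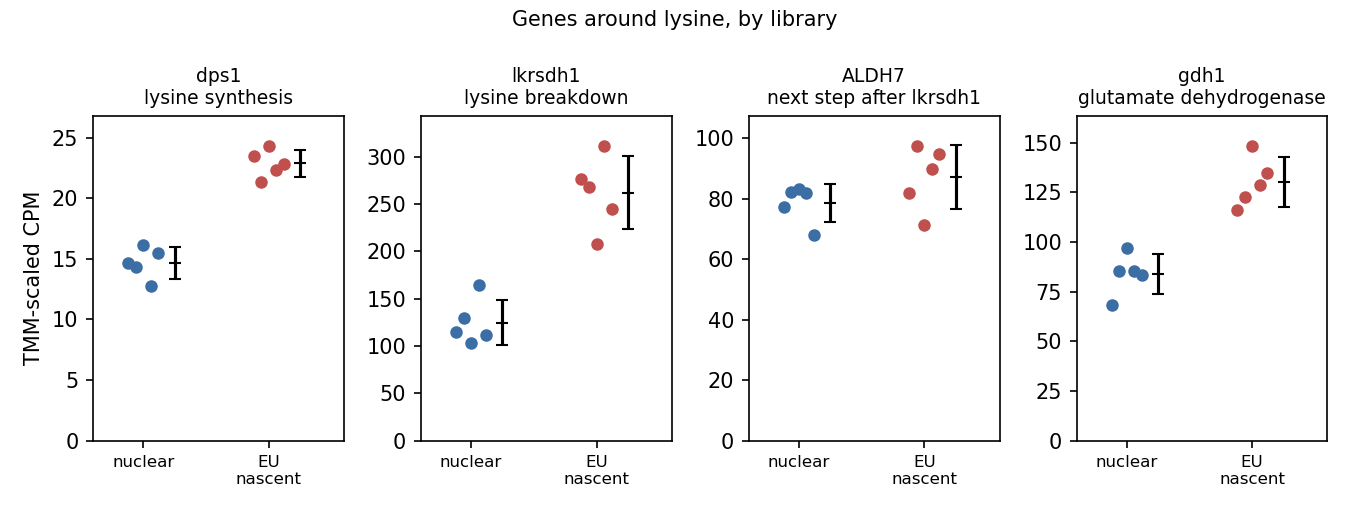
TMM-scaled CPM of dps1, lkrsdh1, ALDH7 and gdh1 in each library, each panel on its own linear axis from 0. Points are libraries (5 per group), and black bars are the mean and SD. The groups do not overlap for dps1, lkrsdh1 and gdh1, and they overlap for ALDH7. Over all tested genes, 24.8% had groups without overlap (11.2% with EU nascent above).

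Glutamate is a product of the lkrsdh1 enzyme. Of 11 genes of glutamate, glutamine and asparagine metabolism, 9 were tested (median log2 fold change -0.06). Of the 9, 2 were higher, 1 lower and 6 not called, beside 19.8% higher and 21.1% lower over all tested genes. The glutamate dehydrogenase gene gdh1 (GeneID 542220), whose enzyme can turn glutamate back into alpha-ketoglutarate, held 116, 123, 149, 129 and 135 CPM in EU nascent and 68.3, 85.4, 97.0, 85.2 and 83.6 in nuclear. No nuclear library reached the lowest EU nascent one, as for 11.2% of tested genes. The log2 fold change was 0.62 ± 0.09 (SE; edgeR adjusted p = 2.51e-05). Another gene overlaps gdh1 in the reference table, and without a stated strand setting reads of the pair may be mixed. The cytosolic glutamine synthetase gene gln2 (GeneID 542400) was higher by 0.55 ± 0.11 (edgeR adjusted p = 0.000901), with 27.2 ± 3.51 CPM against 18.3 ± 0.37 (SD, n = 5). Its relative gln5 (GeneID 542401) had overlapping groups and fractional counts. It was called lower, with -0.37 ± 0.12 (edgeR adjusted p = 0.0171). That call was lost with library totals alone (edgeR adjusted p = 0.158) and without EU nascent replicate 2, EU nascent replicate 4 or nuclear replicate 5 (0.051, 0.054 and 0.0591). Other genes of the same enzyme were not called: gln1 had -0.15 ± 0.25, gln4 -0.13 ± 0.09 and GLN6 -0.06 ± 0.19. The ferredoxin-dependent glutamate synthase gene fgs1 had 0.02 ± 0.12 and the asparagine synthetase genes asn1 and asn3 had 0.00 ± 0.09 and -0.11 ± 0.36, none of them called. Fractional counts were also found for gln1, gln4 and fgs1, and another gene overlaps fgs1 in the reference table. gln3, with 12 counts in all, and asn2, with 0, were too low to test.

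Of 9 tested aldehyde dehydrogenase genes, ALDH7 included, 2 were higher, 2 lower and 5 not called. These counts are near the shares over all tested genes, 19.8% higher and 21.1% lower. The median log2 fold change of the 9 was 0.04. ALDH12 (GeneID 100193220), of the family that acts in proline breakdown, was higher by 0.24 ± 0.08 (SE; edgeR adjusted p = 0.0222). ALDH10A5 (GeneID 541949), also listed as an aminoaldehyde dehydrogenase (AMADH2), was higher by 0.39 ± 0.13 (edgeR adjusted p = 0.0192). Groups overlapped for both, and both had fractional counts. The ALDH12 call was lost without EU nascent replicate 2 or 4 (edgeR adjusted p = 0.0537 and 0.0502) and that of ALDH10A5 without nuclear replicate 4 (0.0511). The mitochondrial aldehyde dehydrogenase gene rf2 (GeneID 732806), known as a restorer of male fertility, was lower, with a log2 fold change of -0.57 ± 0.09 (edgeR adjusted p = 0.000105), at 49.4 ± 6.32 CPM in EU nascent against 72.8 ± 6.17 in nuclear (SD, n = 5), with no overlap. rf2c (GeneID 541913), with overlapping groups, was lower, with -0.40 ± 0.11 (edgeR adjusted p = 0.00757), a call that was lost with library totals alone (0.101). Of the proline list 1 gene was matched, p5cr, pyrroline-carboxylate reductase of proline synthesis, which had 0.02 ± 0.10 and was not called.

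**Figure D4:**
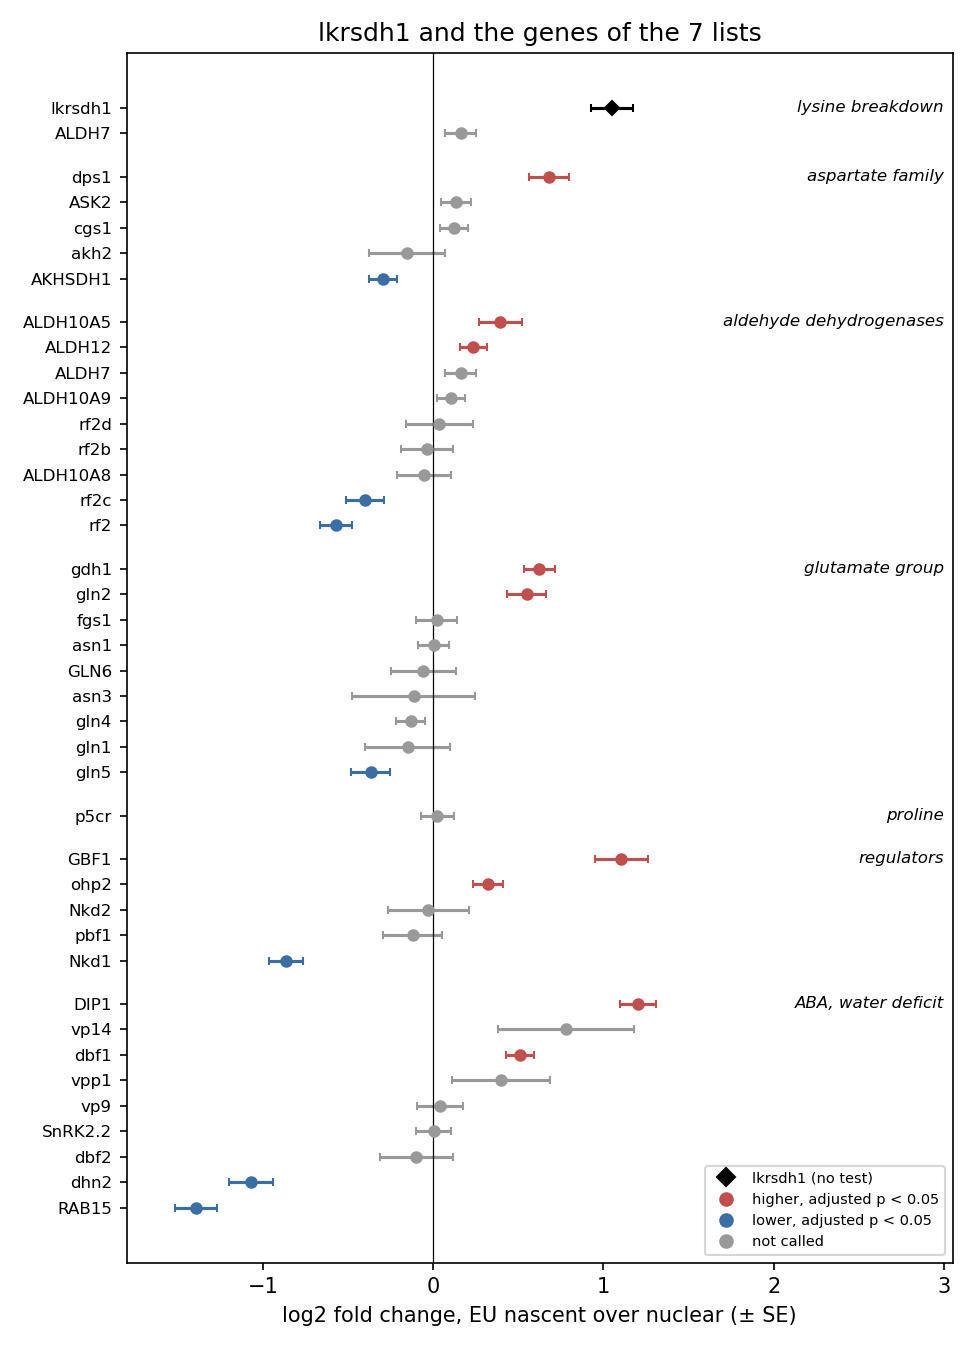
Log2 fold change, EU nascent over nuclear, with its SE, for lkrsdh1 (black diamond, no test) and the 38 other tested genes of the 7 lists; ALDH7 stands in a pair of lists. Red and blue points passed edgeR's quasi-likelihood test at an adjusted p under 0.05 as higher or lower in EU nascent. GBF1 (1.11) and DIP1 (1.20), both listed with earlier results of these data known, lie near lkrsdh1 (1.05). RAB15 (-1.39) is the lowest.

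The endosperm activator of lkrsdh1 was not detected in these root tips. o2 (GeneID 542375), the Opaque-2 gene, had 0 counts in the 10 libraries, and 3 counts over a whole group would be 0.148 CPM in EU nascent and 0.0911 CPM in nuclear. Among other regulators known from the endosperm, the PLATZ factor gene fl3 also had 0 counts and Opaque11, a bHLH factor gene, had 2, both in nuclear replicate 4. Of 11 genes in the list, 5 were tested (median log2 fold change -0.03). Of the 5, 2 were higher, 1 lower and 2 not called, beside 19.8% higher and 21.1% lower over all tested genes. ohp2 (GeneID 542237), coding for a bZIP partner of Opaque-2, was measured at 48.2 ± 3.62 CPM in EU nascent, against 38.6 ± 3.42 in nuclear libraries (SD, n = 5). It was higher by 0.32 ± 0.09 (SE; edgeR adjusted p = 0.0069), the groups did not overlap, and it had fractional counts. Its relative ohp1 had at most 1.99 CPM in any library and was not tested. GBF1 (GeneID 542309), a bZIP factor gene of the G-box binding group, was higher by 1.11 ± 0.16 (edgeR adjusted p = 2.57e-05). It was listed with earlier results of these data known. Nkd1 (GeneID 542199), coding for a zinc finger factor of endosperm development, was lower, with -0.86 ± 0.10 (edgeR adjusted p = 2.84e-06), with 52.2 ± 7.91 CPM against 96.3 ± 7.81 and no overlap. Its relative Nkd2 (-0.03 ± 0.24) and the DOF factor gene pbf1 (-0.12 ± 0.17) were not called. pbf1 had fractional counts and overlaps another gene in the reference table.

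In other plants, Arabidopsis among them, LKR/SDH genes respond to abscisic acid and osmotic stress, so genes of water deficit were listed as well. Of 15 genes, 9 were tested (median log2 fold change 0.04). Of the 9, 2 were higher, 2 lower and 5 not called, beside 19.8% higher and 21.1% lower over all tested genes. The higher ones were dbf1 and DIP1, both listed with earlier results of these data known. dbf1 (GeneID 542569), a DRE-binding factor gene with fractional counts, was higher by 0.51 ± 0.08 (SE; edgeR adjusted p = 7.2e-05). DIP1 (GeneID 732783), which codes for a protein that interacts with DBF1, was higher by 1.20 ± 0.10 (edgeR adjusted p = 9.27e-08). The lower ones were the dehydrin gene dhn2 (GeneID 542251), with 22.9 ± 2.51 CPM against 46.6 ± 10.8 and a log2 fold change of -1.07 ± 0.13 (edgeR adjusted p = 4.96e-06), and RAB15 (GeneID 100194217). RAB15 had 762 ± 91.7 CPM in EU nascent against 1998 ± 424 in nuclear libraries (SD, n = 5), which is -1.39 ± 0.12 on the log2 scale (SE; edgeR adjusted p = 1.2e-07). It had fractional counts, so its level is uncertain. vp14, of abscisic acid synthesis, had 0.78 ± 0.40 (edgeR adjusted p = 0.129). It passed with the replicate number as a block (0.0468) and without EU nascent replicate 3 (0.0253). The classic marker of abscisic acid response, rab17, had 4 counts in all.

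Over the 7 lists together, 51 genes other than lkrsdh1 were matched and 38 of these were tested. Of the 38, 9 were higher and 7 lower, with a median log2 fold change of 0.01 beside 0.02 over all tested genes. As 19.8% of all tested genes were higher and 21.1% lower, these counts do not set the lists apart from the background. The lists were drawn up with earlier results of these data known, so their members' p-values are not independent tests.

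Of the 3 genes on each side of lkrsdh1 in the order of the reference table, 4 were tested. Of these, 0 were called higher, 3 lower and 1 not called, beside 19.8% higher and 21.1% lower over all tested genes. So few genes cannot be set against these shares. The nearest on the one side, LOC100272769, had 47.3 ± 2.96 CPM in EU nascent against 54.4 ± 5.37 in nuclear libraries (SD, n = 5), which is -0.23 ± 0.09 on the log2 scale (SE; edgeR adjusted p = 0.0393). That call was lost in 11 of the 17 alternatives tried, among them library totals alone (-0.06, edgeR adjusted p = 0.617). The next, LOC100216785, was too low to test, at 1.91 CPM in EU nascent and 0.89 in nuclear on average. LOC103654196, a long noncoding RNA gene farther along that side, had -1.87 ± 0.30 (edgeR adjusted p = 8.48e-05), but it overlaps another gene and had fractional counts. On the other side, a small nuclear RNA gene (LOC111591389) had no count. mTRF1, next after it, had -0.01 ± 0.11 and was not called. LOC103504718 was lower, with -0.69 ± 0.09 (edgeR adjusted p = 6.25e-06), at 55.9 ± 6.67 CPM against 89.8 ± 2.84, with no overlap between groups.

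To see which genes varied between replicates as lkrsdh1 did, group means were removed from log2 CPM and Pearson's r with lkrsdh1 was taken over the 10 libraries for 18885 tested genes with a mean of at least 5 CPM. The median r was 0.03, the lowest was -0.96, and 7 genes reached 0.9. The 5 highest were LOC103646897 (r = 0.96), LOC118476854 (0.94), LOC100281471 (0.92), LOC103642016 (0.91) and LOC100274014 (0.91), and the reference table gives no name other than the locus number for any of them. All 5 were above the group mean in replicate 4 and below it in replicate 3 of both groups, as lkrsdh1 was, though in nuclear LOC118476854 was lower still in replicates 1 and 5. Without nuclear replicate 4 the lowest of these r values was 0.82, and after removing the means of the replicate numbers it was 0.20. Their EU nascent over nuclear differences went different ways. LOC103646897, LOC100281471 and LOC100274014 were lower in EU nascent, with log2 fold changes of -0.43 ± 0.08, -0.37 ± 0.09 and -0.19 ± 0.07 (SE; edgeR adjusted p = 0.00027, 0.00217 and 0.0313). LOC118476854 had 0.53 ± 0.21 (edgeR adjusted p = 0.0527), the sign of lkrsdh1, and LOC103642016 had 0.00 ± 0.10 (0.997), neither of them called. The same r was 0.44 for ALDH7, 0.60 for GBF1 and 0.78 for DIP1. With group means kept, which brings in the difference that lkrsdh1 was chosen for, the highest were LOC100384122 (0.98), LOC103652794, LOC100217062, DIP1 and LOC103640626 (0.97 each).

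**Figure D5:**
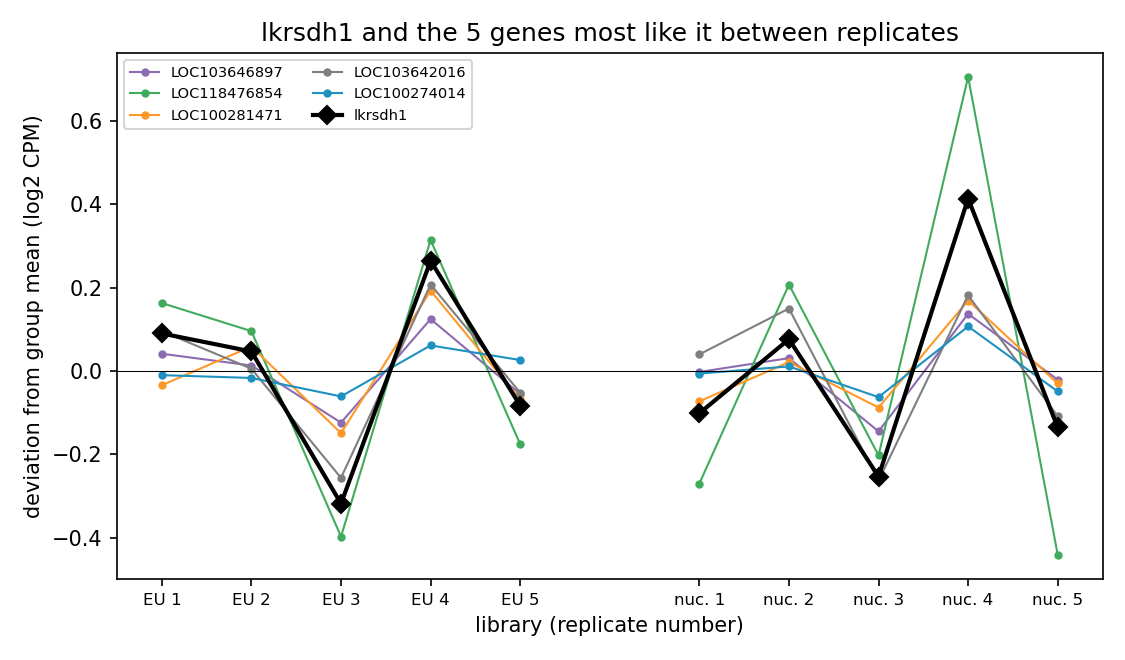
Deviation of log2 CPM from the group mean in each library, for lkrsdh1 (black diamonds) and the 5 genes with the highest Pearson's r to it after removal of group means. Lines join libraries of a group for legibility only, since replicates have no order. Replicate 4 lies above 0 and replicate 3 below 0 in both groups for all 6 genes.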

How the data were processed

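Directional libraries with molecular identifiers were made from nuclear RNA after DNase treatment and ribosomal RNA depletion, per the labels' protocols. Tools listed in the submitters' processing notes, without role or order, are HTSeq, UMI-tools, STAR 2.7.10b, deepTools, Trimmomatic (0.36, 0.39) and SAMtools. The genome build, annotation release and strand setting are not given in the sources used here, so no coordinates are printed. The authors deposited estimated counts of reads per gene without normalization, a unit read here from the numbers, since no label names it: 96.3% were whole within 1e-06. They were rounded to whole numbers. The series table and the library files held the same values (0 differences). Names came from RefSeq's gene table for Zm-B73-REFERENCE-NAM-5.0, in which 48127 of 48174 gene identifiers were found.

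EU nascent and nuclear libraries (5 each, groups and numbers from the sample titles) were compared with edgeR 4.0.16 in R 4.3.3 (filterByExpr, TMM, quasi-likelihood F test, Benjamini-Hochberg at 0.05 over all tested genes). SEs were derived from each log2 fold change and its F statistic. Library totals ranged from 1323450 to 20397606 counts and set the counting error of each library. Tables and figures used Python 3.11.15, numpy 2.4.6, pandas 2.3.3, scipy 1.17.1 and matplotlib 3.10.9. Scripts were tested on simulated data. The labels call the replicates biological, without saying what same-numbered libraries share. The deviations of same-numbered libraries from their group means correlated across genes, with r of 0.20, 0.22, 0.18, 0.19 and 0.16 for numbers 1 to 5. Between EU nascent and nuclear libraries with different numbers, r was at most 0.11. On this basis ratios were taken within numbers and a replicate block was tried. Calls and p-values come from the fit on group alone, without pairs, unless another setting is named. Alternatives were a replicate block, DESeq2 1.42.0, limma-voom (limma 3.58.1), other filters and scalings, and fits without 1 library. The likeness values used a prior count of 2.

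The gene and the lists were chosen with earlier results of these data known. Lists were matched on symbols and synonyms, and genes whose synonym belongs to another gene were left out. Named genes were up to 3 called members per list and direction, uncalled members, the 3 neighbours on each side and the 5 genes most like lkrsdh1. No sequence is shown.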

Additional observations from a re-analysis of the deposited data

Results flagged for a closer look

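lkrsdh1 had no library far from the others of its group. In 43 genes and 86 groups of 5 libraries, 8 groups held 1 library whose gap to the next was over 0.71 of the group's range (Dixon's criterion), where chance flags about 1 in 20 groups. Of the glutamine synthetase gene gln5, EU nascent replicate 1 held 90.5 CPM against 55.0 to 62.5 in the other 4, and nuclear replicate 5 held 94.3 against 76.5 to 81.3. RAB15 had 921 CPM in EU nascent replicate 5 against 682 to 743. The carotenoid pathway gene vp9 had 21.7 CPM in EU nascent replicate 3 against 15.8 to 17.2. Nuclear replicate 1, the shallowest library, held 27.7 CPM of dhn2 against 48.7 to 54.1, 2.44 CPM of gln1 against 4.49 to 5.32 and 6.51 CPM of the proton pump gene vpp1 against 2.49 to 2.87. Nuclear replicate 3 held 4.35 CPM of LOC103654196, a neighbour of lkrsdh1, against 10.2 to 11.9. The part of depth in these values was not tested.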

How the results depend on the processing

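The log2 fold change of lkrsdh1 kept its direction in all 17 alternatives and moved by less than the SD between libraries. It ran from 0.98 to 1.18 over the fits without 1 library, and was 1.06 with the replicate block, 1.05 with RLE factors, 1.06 with DESeq2, 0.99 with limma-voom, 1.04 with no filter on low counts, 1.07 with the stricter filter and 1.22 with library totals alone. The replicate block gave 5099 genes higher and 5347 lower over all tested genes. Library totals alone gave 7386 genes higher and 2765 lower over all tested genes; 3 aspartate-family genes higher and 0 lower; 1 breakdown gene higher; 4 aldehyde dehydrogenase genes higher and 1 lower; 0 glutamate-group genes lower; and 4 genes lower over all lists. Leaving out 1 library gave 0 to 1 breakdown genes higher, 1 to 3 aldehyde dehydrogenase genes higher and 0 to 1 glutamate-group genes lower. The lowest r of the 5 genes most like lkrsdh1 was 0.84 with library totals alone, 0.20 with the replicate block, and 0.82 to 0.91 without 1 library. With the replicate block 0 of these 5 genes were still among the 5 most alike. Without nuclear replicate 1 only 1 was, so which genes are named as most like lkrsdh1 depends on the libraries. Of the 42 other genes followed, no called one changed direction in these alternatives, 20 values lost a call and 7 gained one; besides vp14, the replicate block changed no call among them. Apart from library totals, whose effect on the median of all genes is given above, the cause of these changes was not tested. Depth limits o2, fl3 and the other genes at or near 0, for which no change can be given.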
